A study of Mus musculus with 2 samples.

Results

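The cells described here were dividing cells with natural killer (NK) receptor transcripts in 1 single-cell RNA library of mouse fetal liver. They were chosen by summed UMIs, counts of distinct tagged RNA molecules, in barcodes with at least 500 genes and at most 10% mitochondrial UMIs. A cell entered with at least 4 UMIs of Klrd1, Klrk1, Klrc1 and Ncr1 together and at least 10 UMIs of Mki67, Top2a, Nusap1, Birc5, Ube2c and Cenpf together. It was left out where 5 genes of lymphoid tissue inducer cells and ILC3 (Il22, Il23r, Il17re, Ccr6 and Cxcr5) or 6 genes set for ILC2-like cells (Il13, Il17rb, Icos, Stab2, Slc38a4 and Rxrg) reached a sum of 4. This gave 592 of 8583 kept fetal liver cells, a share of 6.90% (exact 95% interval 6.37 to 7.45%), among 15841 kept cells of the whole series. The UMI counts that chose the cells are the same counts that are described, so every value here is a description without a test.

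NK cells and ILC1 are innate lymphocytes that kill infected or altered cells and release interferon γ without rearranged antigen receptors. T-bet, encoded by Tbx21, drives both types, and Eomes is required for mature NK cells. In the mouse fetal liver, lymphoid precursors expand before birth, and cells with NK receptors, T-bet and little Eomes are known there. A dividing cell copies its DNA in S phase with newly made histones and separates the copies in mitosis, each stage with its own wave of transcription.

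The study compared α4β7-expressing lymphoid progenitors of fetal liver with those of adult bone marrow, with 1 library per tissue. Fetal livers were taken at E14.5, a day count of embryonic age, per the design text, whereas the labels of both samples, the fetal one included, carry an age of 6 to 8 weeks. Both samples came from untreated wild-type B6 mice and were sorted live as CD45+, CD127+, α4β7+ cells that lacked lineage markers, Flt3 and CD25. CD127 is encoded by Il7r, α4β7 by Itga4 and Itgb7, and CD25 by Il2ra. How many animals were pooled is not given in the sources used here, and 232 members held UMIs of Xist only, while 214 held UMIs of Y-linked genes only. The dividing cells were set beside 988 low-cycling NK or ILC1-like fetal liver cells (dividing-gene sum below 10), 1632 other dividing fetal liver cells, 16 dividing and 343 low-cycling NK or ILC1-like bone marrow cells. The fetal liver matrix summed to 91781395 UMIs over 8946 barcodes, the bone marrow matrix to 30039931 over 7367. The median depth of a kept cell was 9294 UMIs for fetal liver, against 3447.5 for bone marrow, and 19 barcode sequences, 1 of them a member's, occurred in both libraries. All intervals below cover counting error only, because neither animals nor libraries were replicated.

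The genes that separate the members from low-cycling cells of the same kind were led by genes of mitosis, and their promoters are shown first. The CHR element (TTTGAA on either strand) and the CCAAT box (CCAAT on either strand) are the known binding elements of the complexes that time G2 and M phase transcription. Windows were taken from RefSeq on GRCm38.p6, from 250 bases before to 50 bases after each gene start. TTTGAA was present in 34 of 52 windows of the G2 and M phase list (65.4%), against 17.9% of all 32851 windows. CCAAT was present in 39 of the 52 windows and in 37.4% of all windows, and both elements together in 51.9% of the list's windows and 6.95% of all. The S phase list was close to this list for CCAAT, with 23 of 34 windows (67.6%). It held both elements in 11.8% of its windows. Of the 10 genes with the largest ratio of dividing over low-cycling cells, 8 matched, and 7 of their 9 windows held TTTGAA. For the 10 genes at the other end, 0 of 9 windows held it, and for the S phase list 6 of 34 did (17.6%). On the NK receptor list 11 of 34 windows held TTTGAA (32.4%), so the spelling was not confined to genes of mitosis. A match is a spelling in the window and was not tested as a binding site.

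Promoters of 5 mitosis genes are given from 130 bases before to 20 bases after the start. Each is on the gene's strand, with both elements in capitals. They were taken from Ube2c, a gene of the rule, and the 10 leading genes, where the stretch held TTTGAA. The presence of TTTGAA in them was thus set by this choice. Other leading genes, such as Plk1, Aurka and Tpx2, gave no such stretch. Ube2c encodes the ubiquitin-conjugating enzyme of the anaphase-promoting complex, Hmmr a spindle protein, Kif22 and Kif11 mitotic kinesins and Prc1 a bundler of the spindle midzone. In the order listed they lie at chr2:164769799-164769948 (plus strand), chr11:40733418-40733567 (minus), chr7:127042401-127042550 (minus), chr7:80294321-80294470 (plus) and chr19:37376252-37376401 (plus).
Ube2c: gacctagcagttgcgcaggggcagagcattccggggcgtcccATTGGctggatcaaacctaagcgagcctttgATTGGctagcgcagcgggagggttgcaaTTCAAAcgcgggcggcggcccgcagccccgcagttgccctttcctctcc
Hmmr: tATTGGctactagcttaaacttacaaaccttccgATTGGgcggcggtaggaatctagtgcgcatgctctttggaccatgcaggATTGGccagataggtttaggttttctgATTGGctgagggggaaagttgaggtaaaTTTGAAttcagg
Kif22: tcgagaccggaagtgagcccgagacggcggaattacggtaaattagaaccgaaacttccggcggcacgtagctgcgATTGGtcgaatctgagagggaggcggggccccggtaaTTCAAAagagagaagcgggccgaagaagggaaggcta
Prc1: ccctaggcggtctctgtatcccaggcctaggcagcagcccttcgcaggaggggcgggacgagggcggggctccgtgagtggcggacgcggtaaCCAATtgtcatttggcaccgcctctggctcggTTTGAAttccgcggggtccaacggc
Kif11: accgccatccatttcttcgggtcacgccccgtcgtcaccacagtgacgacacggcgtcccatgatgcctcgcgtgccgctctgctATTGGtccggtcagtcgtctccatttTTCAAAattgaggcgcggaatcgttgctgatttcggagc
In each of these a CCAAT box stood upstream of the CHR spelling, at 28 bases in Ube2c, 28 in Hmmr, 37 in Kif22, 32 in Prc1 and 26 in Kif11.

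Another element was searched in genes that prepare replication, where CCAAT was also common. E2F-type sites were searched as TTTCCCGC, TTTCGCGC, TTTGCCGC and TTTGGCGC on either strand and were present in 35.3% of the S phase windows, 5.77% of the G2 and M phase windows and 2.26% of all windows. Mcm6, a subunit of the replicative helicase, lies at chr1:128359686-128359835 (minus strand) and Hells, a chromatin remodeller of the replication period, at chr19:38930860-38931009 (plus strand). Their stretches are shown for contrast, with E2F-type sites and CCAAT boxes in capitals. They were picked from S phase genes whose stretch held an E2F-type site, so its presence was set by this choice.
Mcm6: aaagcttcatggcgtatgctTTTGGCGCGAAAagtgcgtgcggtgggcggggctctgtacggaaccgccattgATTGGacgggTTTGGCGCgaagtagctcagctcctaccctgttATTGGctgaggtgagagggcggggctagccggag
Hells: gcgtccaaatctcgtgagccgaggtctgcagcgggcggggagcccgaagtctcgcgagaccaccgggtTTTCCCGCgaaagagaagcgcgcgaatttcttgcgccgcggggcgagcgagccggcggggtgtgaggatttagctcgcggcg
Neither stretch held TTTGAA.

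The cells that met the dividing limit made up a large share of the fetal liver NK or ILC1-like cells. They were 592 of 1580, or 37.5% (35.1 to 39.9%), while 1632 of 6709 other fetal liver cells met the limit, or 24.3% (23.3 to 25.4%). In bone marrow 16 of 359 NK or ILC1-like cells did, or 4.46% (2.57 to 7.14%). A sum of UMIs grows with depth, and members held a median of 12662.5 UMIs, against 8169 in low-cycling cells of the same kind. Fetal liver cells were then thinned to 5000 UMIs, which left out the shallower ones: 5 of the 592 members and 138 of the 988 low-cycling NK or ILC1-like cells, 48 of the 1632 other dividing and 1114 of the 5077 other low-cycling cells. At that depth 328 of 1290 NK or ILC1-like cells met the limit, or 25.4% (23.1 to 27.9%), and 997 of 5935 other cells, or 16.8% (15.9 to 17.8%). Thinned to 3000 UMIs, the share was 12.5% (10.6 to 14.6%) of 1073 fetal liver NK or ILC1-like cells and 0.426% (0.0108 to 2.35%) of 235 in bone marrow, where 1 cell met the limit. Here 0 dividing cells were too shallow, while 15 low-cycling ones were left out in fetal liver and 65 in marrow. The order of the groups was thus the same at equal depth, and all 3 shares were lower, although the cells left out were mostly low-cycling.

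**Figure D1:**
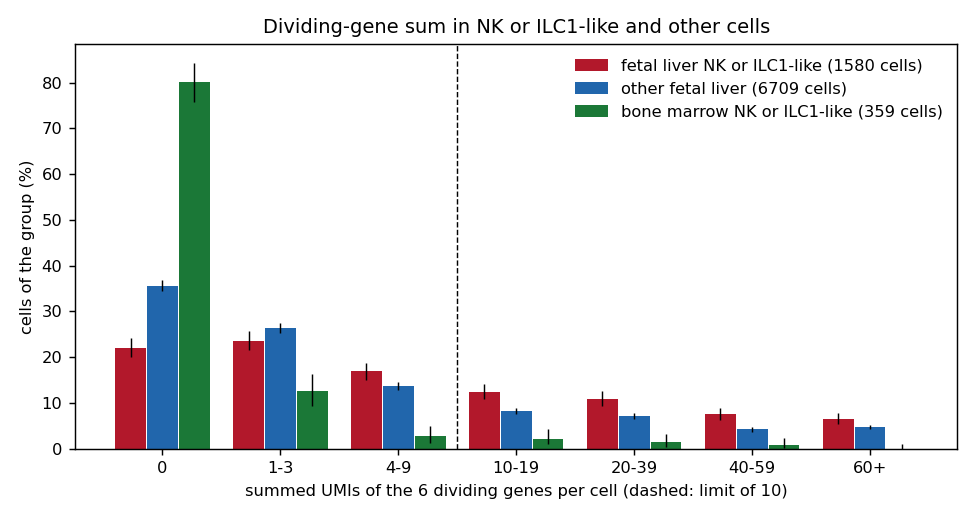
Share of cells (%) by the summed UMIs of the 6 dividing genes, with exact 95% binomial intervals, for fetal liver NK or ILC1-like cells (red), other fetal liver cells (blue) and bone marrow NK or ILC1-like cells (green). The red bars are the tallest in each bin from a sum of 4 upward, and 80.2% of the bone marrow cells had a sum of 0.

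The limit cut through a continuous range. Members had a median dividing-gene sum of 29 and a highest sum of 132. Just inside the limit 73 members had sums of 10 to 12, and just outside it 103 cells had sums of 7 to 9. Replication-dependent histone transcripts stood at 3814 CPM (UMIs per 1000000) in the 73 and 3066 CPM in the 103, and 10 mitosis genes at 611 CPM in the 73 and 666 CPM in the 103. Il7r stood at 94.1 CPM in the 73 and 84.5 CPM in the 103. Lta, which encodes lymphotoxin α, stood at 45.3 CPM in the 73 and 95.2 CPM in the 103. Cells just outside the limit were near those just inside in histone and mitosis transcripts, with histones far above the 406 CPM of cells with a sum of 0. On the NK side 53 members had sums of 4 or 5, and 99 dividing cells with sums of 2 or 3 stayed outside. A further 158 dividing cells with NK sums of 4 or more were left out for their ILC3 or ILC2 sums, 151 of them for the ILC2 sum.

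Klrd1, the CD94 chain of the NKG2 receptors, supplied 80.0% of the NK sum of the members and was detected in 584 of them. Klrk1, which encodes the activating receptor NKG2D, was detected in 358 members, Klrc1, the NKG2A chain, in 287, and Ncr1, the receptor NKp46, in 146. In 63 members all 4 were found together, and 529 would have met the limit on Klrd1 alone. Ube2c supplied 44.9% of the dividing-gene sum, and Birc5, a subunit of the chromosomal passenger complex, 23.8%. Mki67, the usual proliferation marker, supplied 4.02% and was detected in 414 members.

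The label was checked with NK and ILC1 genes that the rule did not use, at 5000 UMIs per cell. Tbx21 had a UMI in 9.71% of 587 members and in 1.83% of 1584 other dividing cells. Il2rb, the β chain of the interleukin 2 and 15 receptors, had one in 21.5% of members and 5.43% of other dividing cells. For Klre1, another NK lectin receptor, the shares were 12.1% of members and 0.505% of other dividing cells, and for Klrb1c, the NK1.1 antigen, 9.54% of members and 0.568% of other dividing cells. Nkg7, a protein of cytotoxic granules, was seen in 85.7% of members and 56.4% of other dividing cells. Not all such genes set the members apart. In unthinned counts Gzma, the protease granzyme A, stood at 92.0 CPM in members and 95.8 CPM in other dividing cells. A list of 14 NK-associated genes summed to 55.3 CPM in members and 66.9 CPM in other dividing cells, with 1 higher and 1 lower of 2 measured. Free RNA in droplets was gauged in 158 B-lineage cells at the same depth, with a median of 9833 UMIs before thinning: 2.53% held Nkg7, 0.633% Il2rb, and 0 held Tbx21, Klre1 or Klrb1c. Klrd1 itself was found in 94.4% of members, 6.94% of other dividing cells and 27.2% of B-lineage cells, so its share was higher in B-lineage cells than in other dividing cells. Other genes were not near 0 there. Unthinned, the 171 B-lineage cells held 367 CPM of Tyrobp, 109 CPM of Fcer1g, 106 CPM of Ccl5 and 30.2 CPM of Xcl1. Cells with NK transcripts were not taken out of this group, and 13 of the 171 reached the NK limit. Whether these UMIs were free RNA was not tested. Of all members 2 also met the limit of the B-lineage class.

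Members without any UMI of Klrk1, Klrc1 or Ncr1 numbered 118, and 474 had at least 1. Tbx21 stood at 19.4 CPM in the 118 and 26.2 CPM in the 474, against 2.94 CPM in other dividing cells. Nkg7 stood at 596 CPM in the 118 and 676 CPM in the 474, against 253 CPM in other dividing cells. Gzma, the protease granzyme A, stood at 8.76 CPM in the 118 and 112 CPM in the 474, against 95.8 CPM in other dividing cells. Ccl5, a chemokine, stood at 1490 CPM in the 118 and 860 CPM in the 474, against 408 CPM in other dividing cells. The members with Klrd1 alone thus had more Tbx21, Nkg7 and Ccl5 than the other dividing cells and less Gzma.

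Eomes was scarce, and other lineages left little trace. Eomes had 6.25 CPM in members and a UMI in 2.56% of them at 5000 UMIs. The summed level of 12 myeloid markers was 19.5 CPM in members, 7.98 CPM in low-cycling NK or ILC1-like cells and 267 CPM in other dividing cells. The 9 B-lineage markers summed to 38.4 CPM in members, 76.9 CPM in low-cycling NK or ILC1-like cells and 233 CPM in other dividing cells, and Pax5, a factor of B-lineage commitment, stood at 0.12 CPM in members. Of 8 T cell markers, 2 (Cd5 and Cd8b1) were at 0 in members, and the sum of 276 CPM came mainly from Cd3g at 197 CPM and Cd28 at 43.3 CPM, with Cd3e at 0.86 CPM. Among the gate genes members held 70.6 CPM of Il7r, 76.0 CPM of Itga4 and 57.9 CPM of Itgb7, with 0.12 CPM of Il2ra and 0.25 CPM of Flt3. No doublet caller was applied, and 19 members (3.21%) held UMIs of both Xist and Y-linked genes, 1 of them at least 3 of each. The part of other cells' RNA in the results was not tested.

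The largest ratios of the members over low-cycling cells of the same kind belonged to genes of mitosis. A gene was measured where the higher group reached 10 CPM, and of 6132 such genes 173 were at least 2-fold higher (2.82%) and 32 at least 2-fold lower (0.522%), with a median log2 ratio of -0.02. Of the 173 higher genes, 62 were on at least 1 of 5 division lists (G2 and M phase, S phase, histones, condensin and cohesin, cyclins and CDKs), which held 129 measured genes. Because the dividing-gene sum split the 2 groups, these counts only describe what that split carries with it. Plk1, the kinase that drives entry into mitosis, stood at 69.4 CPM in members and 4.22 CPM in low-cycling cells, a log2 ratio of 4.04 (95% interval 3.55 to 4.57). Hmmr stood at 101 CPM in members and 8.45 CPM in low-cycling cells, Aurka, a spindle pole kinase, at 73.1 CPM in members and 7.51 CPM in low-cycling cells, and Tpx2, its activator, at 107 CPM in members and 13.0 CPM in low-cycling cells. The remaining leaders were the kinetochore motor Cenpe, Kif22, the mitotic cyclin Ccnb1, Prc1, Kif11 and the histone gene Hist1h2ab, with log2 ratios of 3.01 down to 2.58.

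Most mitotic and chromosome-packing genes were higher in members than in low-cycling cells, and few genes of S phase were. Low-cycling cells were set by a low sum of the 6 dividing genes and were not shown to be outside the cycle. The S phase list summed to 3361 CPM in members, 3253 CPM in low-cycling cells and 1666 CPM in low-cycling marrow cells. The S phase counts thus do not compare dividing with resting cells. On the G2 and M phase list 36 of 44 measured genes were at least 2-fold higher and 0 lower, with a median log2 ratio of 1.92. The same held for 14 of 19 genes of the histone list (1.68) and 8 of 15 condensin and cohesin genes (1.28). The histone list also held the variant histone genes H2afz, H2afv, H2afx and H1f0, so it is not confined to replication-dependent histones. Of 42 S phase genes, 2 were higher, E2f8, a repressor of E2F targets, and Rrm2, the small subunit of ribonucleotide reductase, and 1 was lower, with a median of 0.05. Rrm2 stood at 272 CPM in members and 134 CPM in low-cycling cells. The exception was Ung, the uracil-DNA glycosylase, at 17.7 CPM in members and 82.7 CPM in low-cycling cells (log2 ratio -2.23, -2.50 to -1.97). Licensing genes leaned the same way with smaller ratios: Mcm4, another helicase subunit, stood at 73.6 CPM in members and 111 CPM in low-cycling cells, and Cdc6, the loader of that helicase, had a log2 ratio of -0.72. In nucleotide synthesis 1 of 22 genes was higher, in glycolysis 0 of 15.

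**Figure D2:**
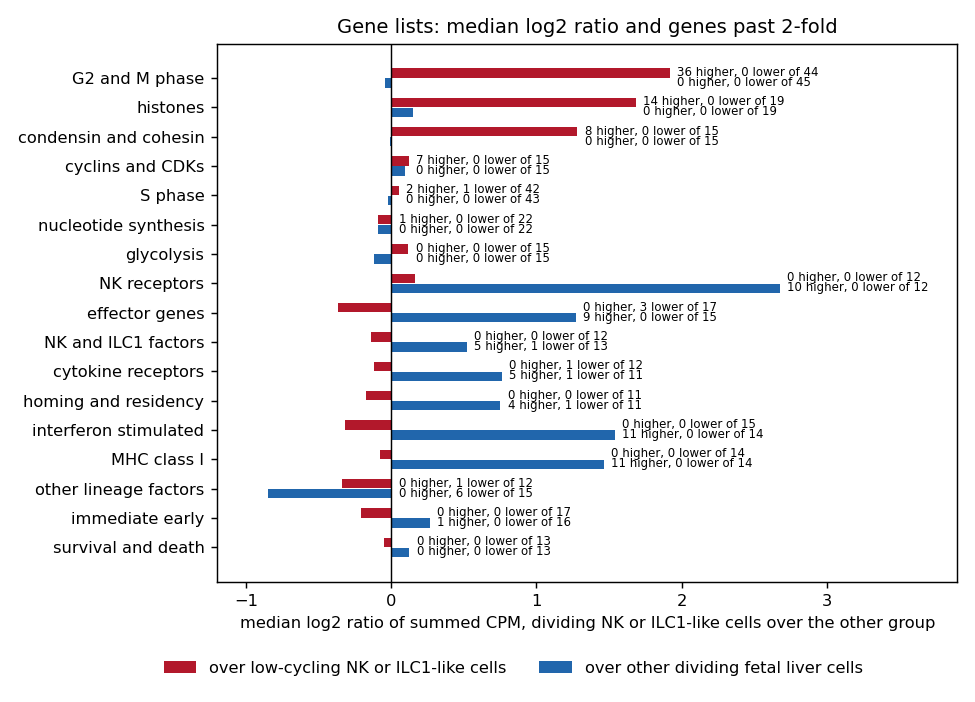
Median log2 ratio of summed CPM for 17 gene lists, in dividing NK or ILC1-like cells over low-cycling cells of the same kind (red) and over other dividing fetal liver cells (blue), with the number of genes at least 2-fold higher or lower among those measured. In red the G2 and M phase (1.92), histone (1.68) and condensin and cohesin (1.28) lists have the highest medians, while S phase (0.05) and cyclins and CDKs (0.12) lie near 0. In blue the NK receptor list is highest (2.68).

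The NK receptors and factors outside the rule differed by less than 2-fold between dividing and low-cycling cells. None of the 12 measured NK receptors outside the rule passed 2-fold in either direction (median log2 ratio 0.17), nor did any of 14 receptor adaptors (-0.19) or 12 NK and ILC1 factors (-0.14). With 2.82% of all genes higher and 0.522% lower, lists of this size would hold few such genes in any case, so these counts are not particular to NK genes. Klrb1b, an inhibitory lectin receptor, stood at 186 CPM in members and 152 CPM in low-cycling cells, and Cd226, the activating receptor DNAM-1, at 102 CPM in members and 75.2 CPM in low-cycling cells. Tbx21 stood at 24.9 CPM in members and 21.9 CPM in low-cycling cells, and Id2, the inhibitor of E proteins that all innate lymphoid cells need, at 776 CPM in members and 795 CPM in low-cycling cells. Ifng, the interferon γ gene, stood at 432 CPM in members and 438 CPM in low-cycling cells (log2 ratio -0.02, -0.09 to 0.05). Gzma stood at 92.0 CPM in members and 58.1 CPM in low-cycling cells, but 10 cells held 62.5% of its UMIs in members.

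The genes that were lower in members included the interleukin 7 receptor, the progenitor factor Tcf7 and a few cytokines. Il7r stood at 70.6 CPM in members and 159 CPM in low-cycling cells (log2 ratio -1.17, -1.32 to -1.03). At 5000 UMIs per cell it was detected in 26.9% of members (23.4 to 30.7%) and 43.3% of low-cycling cells (39.9 to 46.7%). Tcf7 encodes TCF-1, a factor of early innate lymphoid development, and stood at 65.1 CPM in members and 156 CPM in low-cycling cells (log2 ratio -1.26, -1.41 to -1.11). With the rule applied at 5000 UMIs per cell the log2 ratio was -0.65 for Il7r and -1.04 for Tcf7, so the Il7r ratio no longer reached 2-fold. Of 17 effector genes 3 were lower: Lta at 52.6 CPM in members and 139 CPM in low-cycling cells, the chemokine gene Ccl4 at 27.1 CPM in members and 90.6 CPM in low-cycling cells, and Areg, the growth factor amphiregulin, at 5.27 CPM in members and 11.7 CPM in low-cycling cells. Ccl4 rested on few cells, with 76.9% of its UMIs in 10 members. Ccl5 stood at 984 CPM in members and 1836 CPM in low-cycling cells, a log2 ratio of -0.90.

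Il7r and Tcf7 were also lower in dividing cells outside the NK group. In other fetal liver cells Il7r stood at 99.0 CPM in dividing and 255 CPM in low-cycling cells (log2 ratio -1.37), and Tcf7 at 130 CPM in dividing and 277 CPM in low-cycling cells (-1.10). Lta stood at 59.7 CPM in dividing and 433 CPM in low-cycling cells there (-2.86), and Ung at 19.7 CPM in dividing and 57.1 CPM in low-cycling cells (-1.54). In that comparison 234 of 6427 genes were at least 2-fold higher (3.64%) and 113 lower (1.76%), and 40 of 45 G2 and M phase genes were higher. The directions of these 4 genes were thus shared by the NK or ILC1-like and the other cells, and the difference between the 2 contrasts was not tested. Ly6d, a surface protein of early B-lineage cells, had the most negative ratio among genes at 50 CPM or more, at 1.35 CPM in members and 104 CPM in low-cycling cells. Of its low-cycling UMIs 82.9% lay in 10 cells, and B-lineage Cd79a went the same way (log2 ratio -2.90), with 2 members and 10 low-cycling cells inside the B-lineage limit.

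The lower Il7r level was graded along the dividing-gene sum and nearly flat within the members. In bins of 0, 1 to 3 and 4 to 9 UMIs, Il7r stood at 238, 139 and 116 CPM. In the 4 bins of members, 10 to 19, 20 to 39, 40 to 59 and 60 to 132, it stood at 80.1, 61.7, 71.1 and 70.2 CPM. Tcf7 stood at 192 CPM in the lowest bin and 55.7 CPM in the highest. Ung peaked in the bin of 1 to 3 at 102 CPM and was at 4.01 CPM in the highest bin. Ccl5 stood at 2591 CPM in the lowest bin and 791 CPM in the highest. Klrb1b stayed between 140 and 204 CPM over all 7 bins, Tbx21 between 21.4 and 26.2 CPM, Nkg7 between 585 and 711 CPM and Ifng between 369 and 525 CPM. The median UMIs per cell increased over the bins as well, to 17719.5 in the highest, against 6338 in the lowest.

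**Figure D3:**
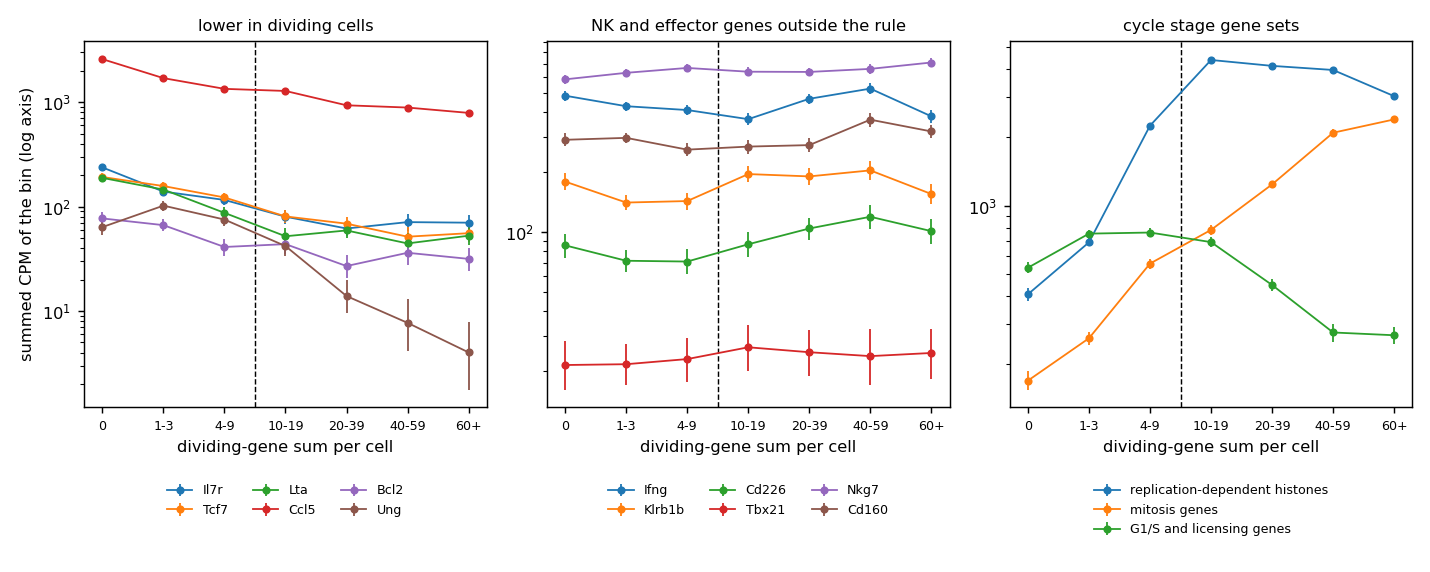
Summed CPM (log axis) over 7 bins of the dividing-gene sum in the 1580 fetal liver NK or ILC1-like cells, with exact 95% Poisson intervals; cells right of the dashed line are members. Il7r, Tcf7, Lta, Ccl5, Bcl2 and Ung are lower on the right, the 6 genes of the middle panel, which the rule did not use, each stay within a 2-fold range, and the licensing set (690 to 268 CPM) declines while the mitosis set (781 to 2399 CPM) increases within the members.

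The members differed in transcripts of several cycle stages, within the part of the cycle that the dividing-gene limit let in. A licensing set of 10 genes, among them Mcm2, Mcm4, Cdc6 and E2f1, had a median of 352 CPM per member. Its summed level was 743 CPM in members with sums of 10 to 12 and 792 CPM in cells with sums of 7 to 9. Cells with licensing transcripts were thus also found outside the limit. A mitosis set of 10 genes, among them Plk1, Aurka, Ccnb1 and Cdc20, had a median of 1351 CPM and a range of 62.1 to 6311 CPM. Replication-dependent histones had a median of 4136 CPM, with at least 1 member at 0; most of their transcripts lack the poly(A) tail that this kit primes on, so these levels follow only the captured part. Over the 592 members the mitosis and licensing levels went in opposite directions (Spearman rho -0.67), the histone level was weakly negative with mitosis (-0.21) and weakly positive with licensing (0.19). These are descriptions across cells that share 1 library and a per-cell total, not replicates.

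Ordered by mitosis level, the lowest 198, the middle 197 and the highest 197 members gave a sequence of stages. The licensing set stood at 702, 364 and 227 CPM, and Rrm2 at 364, 293 and 154 CPM. Hmgb2, a chromatin protein of dividing cells, stood at 2607, 3962 and 4820 CPM, and the mitotic cyclin Ccnb2 at 55.9, 160 and 304 CPM. Ifng stood at 413, 408 and 478 CPM over the same order, and Il7r at 63.7, 71.4 and 77.0 CPM. Ccl5 was lower toward the mitotic end, at 1331, 856 and 766 CPM. Ifng and Il7r, which the rule did not use, were thus found at both ends of this order.

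**Figure D4:**
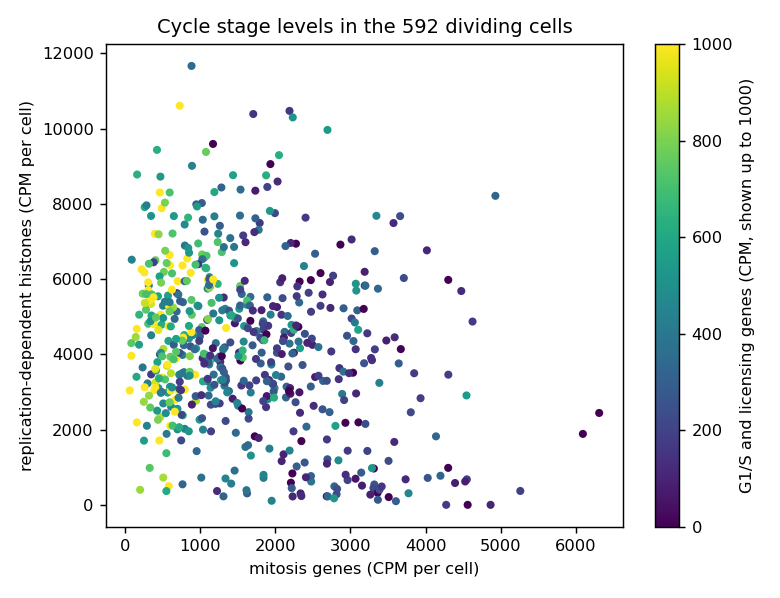
Each of the 592 members by its mitosis-gene level (x, CPM per cell) and its replication-dependent histone level (y, CPM per cell), coloured by the G1/S and licensing level (CPM, shown up to 1000). Yellow and green cells with high licensing levels lie at low mitosis levels, and the members above 3000 CPM of mitosis genes are mostly dark.

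Set beside other dividing cells of the same library, the members had more NK receptor transcripts, and no gene of 3 division lists passed 2-fold. Of 6287 genes 214 were at least 2-fold higher (3.40%) and 233 lower (3.71%), with a median log2 ratio of -0.06. Of 45 G2 and M phase genes, 43 S phase genes and 19 histones, 0 passed 2-fold in either direction, with medians of -0.04, -0.02 and 0.15. Of 12 NK receptors outside the rule 10 were higher, with a median of 2.68, and Cd96 and Fcgr3 were within 2-fold. The NK sum split these groups, so genes that travel with Klrd1 in any cell count as chosen. Both groups met the same limit on the 6 dividing genes, with a median sum of 29 in each. The likeness of the division lists was thus set by the choice of cells.

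Several receptors were almost absent from the other dividing cells. Klri2, an NK lectin receptor, stood at 55.4 CPM in members and 0.726 CPM in other dividing cells (log2 ratio 6.25, 5.59 to 7.00). Klrc2, the NKG2C chain, stood at 31.9 CPM in members and 0.497 CPM in other dividing cells, and Klre1 at 29.4 CPM in members and 1.07 CPM in other dividing cells. Cd160, a receptor of NK cells and ILC1, stood at 303 CPM in members and 52.6 CPM in other dividing cells. The adaptors that these receptors signal through were present in both groups. Fcer1g stood at 1250 CPM in members and 451 CPM in other dividing cells. Tyrobp, which encodes DAP12, stood at 974 CPM in members and 377 CPM in other dividing cells, with 367 CPM in B-lineage cells.

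Of 15 effector genes 9 were higher in members and 0 lower, with a median log2 ratio of 1.27. Xcl1, the lymphotactin gene, stood at 82.2 CPM in members and 0.994 CPM in other dividing cells, although 67.8% of its UMIs in members lay in 10 cells. In B-lineage cells it stood at 30.2 CPM. Ifng stood at 432 CPM in members and 79.0 CPM in other dividing cells (log2 ratio 2.45, 2.37 to 2.53) and had a UMI at 5000 UMIs per cell in 62.0% of members, 15.2% of other dividing cells and 0.633% of B-lineage cells. Ctsw, a protease of cytotoxic lymphocytes, stood at 351 CPM in members and 85.9 CPM in other dividing cells, and Ltb, which encodes lymphotoxin β, at 605 CPM in members and 212 CPM in other dividing cells. Gzma was alike at 92.0 CPM in members and 95.8 CPM in other dividing cells, and the killing genes Prf1 and Gzmb stood at 0.12 and 3.07 CPM in members. Of 13 NK and ILC1 factors 5 were higher, led by Tbx21 at 24.9 CPM in members and 2.94 CPM in other dividing cells, and Zeb2, a factor of late NK maturation, was lower (log2 ratio -2.39). Of 15 factors of other lineages 0 were higher and 6 lower, among them Bcl11b, a factor of T cells and ILC2 (-3.05), and the B-lineage factor Ebf1 (-4.01).

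Genes of the interferon response and of antigen presentation were higher in members than in other dividing cells. Of 14 interferon-stimulated genes 11 were at least 2-fold higher (median log2 ratio 1.54), as were 11 of 14 MHC class I genes (1.46), against 3.40% of all genes. Igtp, an interferon-induced GTPase, stood at 176 CPM in members and 41.8 CPM in other dividing cells. H2-K1, a classical class I heavy chain, stood at 623 CPM in members and 184 CPM in other dividing cells, and Ifngr1, the interferon γ receptor, at 296 CPM in members and 96.5 CPM in other dividing cells. Low-cycling NK or ILC1-like cells were at a like level, with 648 CPM of H2-K1. The same order held for Gimap4, a GTPase of lymphocytes, at 201 CPM in members and 24.0 CPM in other dividing cells. Among the genes lower in members were markers of other lineages. S100a8, a neutrophil protein, had a log2 ratio of -7.14, Mpo, the granule peroxidase of myeloid precursors, stood at 7.73 CPM in members and 92.2 CPM in other dividing cells, and Mzb1, a protein of B-lineage and plasmacytoid cells, at 6.01 CPM in members and 77.1 CPM in other dividing cells.

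**Figure D5:**
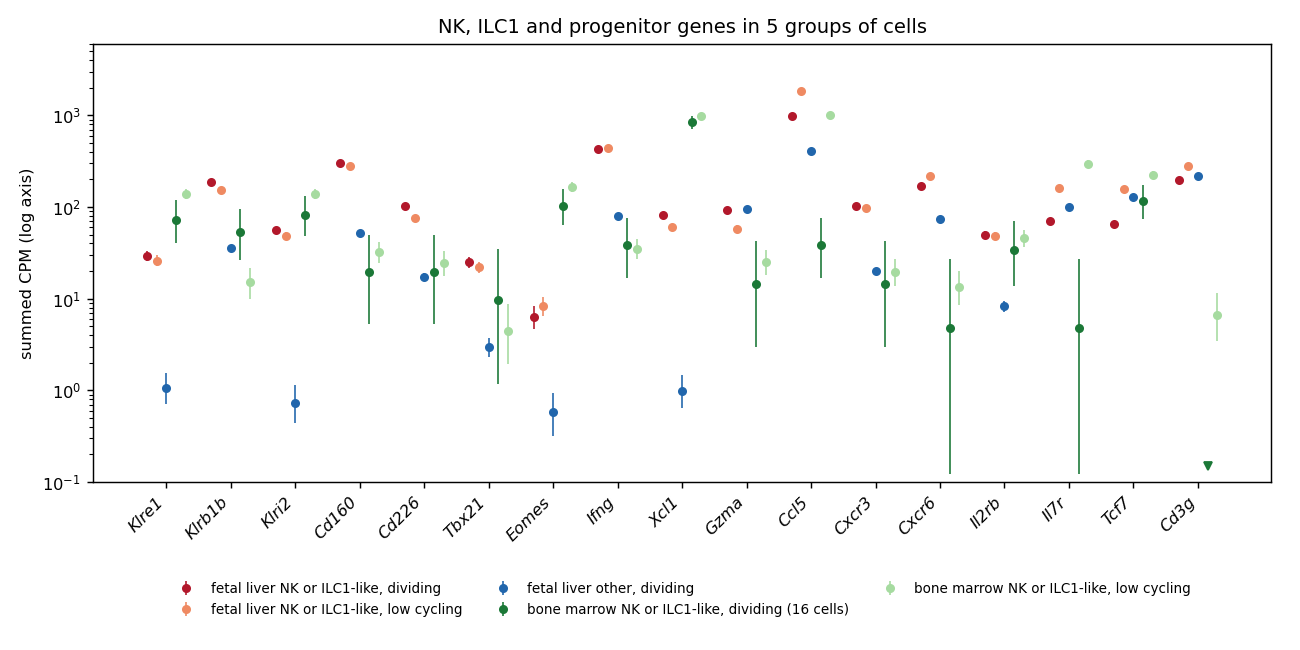
Summed CPM (log axis) of 17 genes in 5 groups of cells with exact 95% Poisson intervals; the triangle at the bottom marks 0 UMIs. Dividing and low-cycling fetal liver NK or ILC1-like cells (red, orange) lie close together for most genes, and the bone marrow groups (green) stand higher for Eomes and Xcl1 and lower for Ifng, Cxcr6 and Cd3g.

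The members were uneven among themselves in chemokine, interferon and class II genes. Counts were thinned to 5000 UMIs in 587 members, and over 1257 genes at 100 CPM or more the median variance-to-mean ratio was 1.11. The highest ratios belonged to the chemokine Cxcl2 (20.6), the interferon-induced Ifitm1 (19.6), the chemokines Cxcl10 (16.1) and Ccl5 (15.9), Actb (14.6), the nuclear RNA Malat1 (13.9), Plac8 (11.2), Tmsb4x (10.1), the class II invariant chain Cd74 (9.48) and H3f3b (7.31). Cxcl2 had a UMI in 12.1% of these members, with up to 68 UMIs in a cell, and Ccl5 in 58.9%. Ifng varied less sharply at this depth, with a ratio of 4.67 and up to 24 UMIs in a cell. In unthinned counts of all 592 members its quartiles were 1, 3 and 8 UMIs. Its highest unthinned count was 96, against 111 for Cxcl2.

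Small subsets carried several of these transcripts, and they are described with no test because the gene itself chose them. In 25 members with at least 5 UMIs of Xcl1, Gzma stood at 547 CPM, against 64.0 CPM in the other 567, and Klre1 at 86.9 CPM in the 25 and 25.9 CPM in the 567. In 40 members with at least 5 UMIs of Cd74, the class II chain gene H2-Aa stood at 317 CPM, against 2.40 CPM in the other 552, while Klrk1 stood at 197 CPM in the 40 and 151 CPM in the 552. In 245 members with at least 5 UMIs of Ifng, Ncr1 stood at 59.5 CPM and Klrk1 at 195 CPM, against 38.4 CPM of Ncr1 and 124 CPM of Klrk1 in the other 347, and Ccl5 at 804 CPM in the 245 and 1123 CPM in the 347. Median UMIs were 13712 in the 245 and 12067 in the 347, and the part of depth in this split was not tested.

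Adult bone marrow gave only 16 cells of the same rule, with 206816 UMIs in all, where 10 CPM is 2.07 UMIs. Members exceeded the 16 cells by 2-fold or more in 1065 of 6429 genes (16.6%) and fell short by as much in 841 (13.1%), counts that move widely with the processing, and the 343 low-cycling bone marrow cells are given beside them. Tissue, age and library cannot be told apart here. Xist had 0 UMIs in both bone marrow groups and 248 CPM in members, so the sex of the cells was not matched between the tissues.

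Eomes, Klra3 and Xcl1 were lower in the fetal members than in the 16 marrow cells. Eomes stood at 6.25 CPM in members, 102 CPM in the 16 cells (log2 ratio -4.02, -4.78 to -3.21) and 165 CPM in low-cycling marrow cells. At 3000 UMIs per cell Eomes was found in 1.18% of members and 31.3% of the 16 cells. Klra3, an inhibitory Ly49 receptor for class I, stood at 0.245 CPM in members, with both UMIs in 1 cell, and at 58.0 CPM in dividing and 45.6 CPM in low-cycling marrow cells. Ly49 genes are near-identical copies, so reads may be split among them. Xcl1 stood at 82.2 CPM in members, 836 CPM in dividing and 986 CPM in low-cycling marrow cells. Of 5 measured genes of the NK-associated list 4 were lower and 0 higher in members than in the 16 cells, while of 17 NK receptors outside the rule 6 were higher and 7 lower. Prf1 and Gzmb had 0 UMIs in the 16 cells.

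The other side of the comparison with the 16 cells held ILC1-associated, interferon γ and CD3 genes. Ifng stood at 432 CPM in members, 38.7 CPM in dividing and 35.1 CPM in low-cycling marrow cells. Cxcr6, a liver-homing chemokine receptor of ILC1, stood at 169 CPM in members, 4.84 CPM from 1 UMI in the 16 cells (log2 ratio 5.13, 2.64 to 10.43) and 13.4 CPM in low-cycling marrow cells. Cd160 stood at 303 CPM in members, 19.3 CPM in the 16 cells and 32.3 CPM in low-cycling marrow cells. Cd3g, a chain of the T cell receptor complex, stood at 197 CPM in members and had 0 UMIs in the 16 cells, at least 13.6-fold higher against 3 UMIs, and 6.68 CPM in low-cycling marrow cells. Ckb, the brain-type creatine kinase, stood at 912 CPM in members, 19.3 CPM in the 16 cells and 52.3 CPM in low-cycling marrow cells, and Igf2bp3, a fetal RNA-binding protein of the Lin28b programme, at 47.8 CPM in members, 9.67 CPM in the 16 cells and 3.34 CPM in low-cycling marrow cells. Of 12 ILC1-associated genes 9 were higher and 0 lower in members than in the 16 cells, with a median log2 ratio of 1.74 (all genes 0.02). That median was -1.79 with the rule on thinned counts, where 1 marrow cell remained. Against the 343 low-cycling marrow cells 5 of 13 ILC1-associated genes were higher and 2 lower, with a median log2 ratio of -0.28. In that comparison 10.6% of all genes were higher and 12.2% lower. The list as a whole was thus higher only against the 16 cells.

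Interferon-stimulated genes were higher in members in this comparison too. Igtp stood at 176 CPM in members, 38.7 CPM in the 16 cells and 13.4 CPM in low-cycling marrow cells. Of 15 interferon-stimulated genes 11 were higher and 1 lower against the 16 cells, with a median log2 ratio of 1.66 that was -1.21 against the 1 cell left after thinning. Against the 343 low-cycling marrow cells 10 of 16 were higher and 2 lower, with a median log2 ratio of 1.88. In that comparison 10.6% of all genes were higher. Immediate early genes, which handling can induce, went the other way: 7 of 18 were lower and 0 higher against the 16 cells, and 14 of 18 lower against the low-cycling marrow cells, where 12.2% of genes were lower. Fos stood at 520 CPM in members, 1484 CPM in dividing and 2265 CPM in low-cycling marrow cells. Prss2, a trypsinogen gene, stood at 1.72 CPM in members, 445 CPM in dividing and 437 CPM in low-cycling marrow cells. Of 45 G2 and M phase genes outside the rule 15 were higher, against 16.6% of all genes, and 1 was lower. Of 43 S phase genes 0 were higher and 6 were lower, a share near the 13.1% of all genes.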

How the data were processed

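Lymphoid progenitors were profiled with a droplet 3′ kit, and the authors deposited raw UMI counts per gene and barcode after filtering out barcodes without a cell, per the labels' protocols. The file headers name matrix software 3.0.1 and format 2. The submitters' processing notes name mm10 and Seurat 4.0 without a role. The aligner was not given in the sources used here, nor was the annotation. The deposited gene and barcode lists hold no measurement (other). GENCODE M21 held 27645 of the 27998 gene identifiers.

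The members, gene lists and named genes were chosen with earlier results of these data known. Barcodes with under 500 genes or over 10% mitochondrial UMIs were left out (363 in fetal liver, 109 in bone marrow), and no doublet caller was applied. Counts were summed over the cells of a group and divided by the group's total (CPM), with exact Poisson intervals. Groups were compared by log2 ratios with exact conditional 95% intervals, and a gene counted as higher or lower at 2-fold or more with at least 10 CPM in the higher group, the 21 genes of the rule left out. With 1 library per tissue there is no replicate and no test was made. Shares have exact Clopper-Pearson intervals, and cells were thinned to 5000 UMIs, or 3000 where bone marrow entered. A fold against 0 UMIs is a bound against 3 UMIs over the group. Named were the 10 largest and 10 smallest ratios at 50 CPM or more, up to 4 genes per list, receptor, factor and effector genes at 10 CPM or more and the 10 most variable genes; others were chosen after their values were seen. Some genes that this rule names are not reported here. The calculation of the ratios was run on simulated Poisson counts. These lack the unevenness between cells found here, so that run covers the calculation and counting error only. The analysis used Python 3.11.15, numpy 2.4.6, scipy 1.17.1 and pandas 2.3.3.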

Additional observations from a re-analysis of the deposited data

Results flagged for a closer look

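Areg, the growth factor amphiregulin, differed in direction between the tissues when dividing NK or ILC1-like cells were set over low-cycling ones. In fetal liver its level was 5.27 CPM in dividing and 11.7 CPM in low-cycling cells, a log2 ratio of -1.15. In bone marrow it was 87.0 CPM in the 16 dividing and 34.0 CPM in the 343 low-cycling cells, a log2 ratio of 1.36. The difference between the tissues was not tested, and the bone marrow value rests on 18 UMIs in 16 cells.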

How the results depend on the processing

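No paired analysis was possible because there was 1 library per tissue. The share of dividing cells among fetal liver NK or ILC1-like cells (37.5%) was 50.8% with a dividing-gene limit of 5, 25.1% with 20, 41.3% with an NK limit of 8 and 25.4% with the rule on thinned counts. Over low-cycling cells, 173 higher genes became 68 at a minimum of 50 CPM. The 32 lower genes became 60 with a limit of 20, 9 at 50 CPM, 116 with no minimum and a pseudocount of 1 CPM, and 62 with low cycling set below 4. Over other dividing cells, 214 higher genes became 73 at 50 CPM, and 233 lower genes 58 at 50 CPM and 624 with no minimum. Fetal liver over bone marrow moved most: 1065 higher genes became 3689 with thinned counts and 3878 without barcodes above the 95th percentile of UMIs, each against 1 bone marrow cell, 229 at 50 CPM and 3022 with no minimum, and 841 lower genes became 1346, 1310, 178 and 1535. Directions reversed there with 1 marrow cell for Klrb1b (-0.98 thinned, -0.48 without the highest barcodes) and Il7r (-0.95 without the highest barcodes). They also reversed for the ILC1-associated median (-1.79 and -1.54) and the interferon-stimulated median (-1.21 and -1.91). Between dividing cells these directions thus rest on the 16 cells. Against low-cycling marrow cells the interferon-stimulated median was 1.88 and the ILC1-associated median -0.28. With at least 1000 genes per cell, Hba-a2 (0.33) and Hbb-bs (0.074) reversed over other dividing cells, where a few cells held nearly all their UMIs. Among 1947 values of single genes and lists, 1653 stayed close to the main value, 285 moved further and 9 reversed. Close meant inside the counting interval of the main value for a gene, or a small move for a list median. Some of these intervals are wide. A reversal was counted only where the main ratio was at least 2-fold, so sign changes of smaller ratios are not among the 9. A setting added after seeing the data, without the 10 highest cells of each gene in each group, reversed 0 of 102 values by this count. It moved 29 of them further. Median-ratio scaling shifted the log2 ratios by at most 0.0551. Depth limits the bone marrow values.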
